A study of Mus musculus with 6 samples.

Results

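The DNA replication genes examined here are 37 genes that load and run the replication machinery, supply its nucleotides or package the copied DNA. They were chosen with earlier results of these data known and were looked up by gene symbol. Each symbol matched a single row of the 56691 genes in the table. The RNA of 6 libraries was sequenced, all from WT cells of a mouse macrophage line spelled RAW246.7 in the labels. All cells had first received lipopolysaccharide (LPS), the outer membrane molecule of bacteria by which macrophages sense them, and no library without that treatment was analysed here. The cells then spent 24 h on an MSA-DA hydrogel in 3 libraries and on an MSA-ZW hydrogel in the other 3; the labels do not spell out these names. The series title names macroporous gels that differ in protein absorption, the fibrin networks they form, and macrophage function. Comparing the gels asks here whether the replication genes of these cells differed with the material. Whether the 3 libraries per gel were separate cultures is not stated, so the p-values reflect just how far these libraries differ, which may be technical spread.

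Count totals were 14374912 to 18346615 on MSA-DA and 16347934 to 18193026 on MSA-ZW. All 10 macrophage markers examined were present, and together they held 4980 to 5047 CPM in the MSA-DA libraries, against 5722 to 5794 CPM in the MSA-ZW libraries. CPM is the count of a gene relative to the scaled library size. Of these markers 6 were lower, Itgam was higher, and Cd68, Ptprc and Adgre1 did not pass (edgeR adjusted p below 0.05). Lyz2 carried most of the difference in the sum, and without it the other 9 markers held 3233 to 3252 CPM in the MSA-DA libraries, against 3447 to 3471 CPM in the MSA-ZW libraries. The 16 markers of other cell types had no count in any library for 6 of them, and summed to 30 to 41 counts per library on MSA-DA and 38 to 51 on MSA-ZW, of which S100a8 gave up to 28.

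Replication starts at origins, where the origin recognition complex, with Cdc6 and Cdt1, loads the ring of Mcm2 to Mcm7 on DNA before S phase. Kinases and firing factors then join Cdc45 and the GINS complex to the ring to make the active helicase, and polymerases alpha, delta and epsilon copy the strands it opens. The sliding clamp PCNA holds polymerases and joining enzymes on the DNA. Many of these genes are transcribed under E2F factors as cells pass from G1 into S phase, and RAW cells, unlike most tissue macrophages, divide in culture.

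E2F-type letters were searched in the promoters of the members, because they are the sequence feature that this gene group is best known to share. The window ran from 250 bases before to 50 after the start site, in RefSeq promoters of GRCm38.p6, which held 31 of the 37 genes. The 4 spellings TTTCGCGC, TTTGGCGC, TTTCCCGC and TTTGCCGC were searched on both strands, and a hit on one strand may overlap a hit on the other. At least 1 of them stood in 12 of the 31 genes (38.7%) and in 704 of 27025 genes overall (2.6%). The letters CCAAT, also on both strands, stood in 17 of the 31 (54.8%) and in 41.1% of all genes. Of the 10 genes that were lower on MSA-DA, 9 had a promoter in the table, and 5 of these held E2F-type letters, as did 7 of the 22 that did not pass. The 250 bases before the start site are printed for 3 helicase genes and Uhrf1, all lower on MSA-DA, with E2F-type and CCAAT letters in capitals.
Mcm5 (chr8:75109259-75109508, GRCm38.p6, plus strand): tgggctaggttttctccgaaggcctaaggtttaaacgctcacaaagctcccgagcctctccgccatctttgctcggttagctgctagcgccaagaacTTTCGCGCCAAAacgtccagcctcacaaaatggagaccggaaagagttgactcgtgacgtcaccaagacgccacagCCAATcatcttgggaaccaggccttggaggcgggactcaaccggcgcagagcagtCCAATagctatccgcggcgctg
Mcm6 (chr1:128359706-128359955, GRCm38.p6, minus strand): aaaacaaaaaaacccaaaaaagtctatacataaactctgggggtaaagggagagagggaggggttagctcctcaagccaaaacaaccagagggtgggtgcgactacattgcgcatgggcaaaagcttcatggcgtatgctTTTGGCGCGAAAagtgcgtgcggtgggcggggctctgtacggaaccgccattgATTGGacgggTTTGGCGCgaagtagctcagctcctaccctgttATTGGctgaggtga
Mcm7 (chr5:138171884-138172133, GRCm38.p6, minus strand): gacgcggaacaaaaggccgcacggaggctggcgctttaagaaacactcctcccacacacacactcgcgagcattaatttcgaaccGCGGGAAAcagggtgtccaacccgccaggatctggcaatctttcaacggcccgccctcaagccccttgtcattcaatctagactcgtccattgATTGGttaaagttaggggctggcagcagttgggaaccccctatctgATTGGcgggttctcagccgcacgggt
Uhrf1 (chr17:56304063-56304312, GRCm38.p6, plus strand): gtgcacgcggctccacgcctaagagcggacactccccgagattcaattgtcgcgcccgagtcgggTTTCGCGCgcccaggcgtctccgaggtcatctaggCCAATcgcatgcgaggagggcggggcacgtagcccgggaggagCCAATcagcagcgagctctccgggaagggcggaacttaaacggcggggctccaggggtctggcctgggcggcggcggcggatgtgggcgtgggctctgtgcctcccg
In Mcm5 the hits began 153 and 149 bases before the start site and overlapped each other, giving a single run of capitals. In Mcm6 they began 110, 106 and 47 bases before it, the first pair overlapping. The Mcm7 hit in this stretch began 165 and the Uhrf1 hit 185 bases before the start site. Mcm7 and Uhrf1 each had a second promoter with no hit in the 250 bases. The printed genes were chosen among those with a hit. Mcm2, Mcm10, Rrm1 and Tk1, also lower on MSA-DA, held none of the 4 exact spellings in their windows. Looser matches were not searched.

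Replication genes were slightly lower on MSA-DA in part of the group, and none was called higher. Of the 37 genes, all of which passed the filter on low counts, 10 were lower, 0 higher and 27 did not pass the edgeR quasi-likelihood test (adjusted p below 0.05 over 12467 genes). The 10 were the helicase genes Mcm2, Mcm5, Mcm6, Mcm7 and Mcm10, the polymerase gene Pole, the DNA ligase gene Lig1, the nucleotide genes Rrm1 and Tk1, and Uhrf1. They are 27.0% of the group, where 6.5% of all tested genes were lower and 6.92% higher. The group was chosen with earlier results of these data known. Its shares and median therefore describe it and are no independent support for a group-wide fall. The falls were small, from 8.15% for Mcm5 to 11.4% for Uhrf1. The median log2 difference was -0.07 over the 37 genes and 0.00 over all tested genes, and 29 of the 37 (78.4%) had a value below 0, against 49.7% of all tested genes. In RNA from whole cultures, fewer cells in S phase and less RNA per cell cannot be told apart. The macrophage markers, whose sum was lower on MSA-DA mostly through Lyz2 while Itgam was higher, were measured in the same libraries, and their part in this result was not tested.

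All 10 lay among the 25 members with a mean of at least 64 CPM, of which 40.0% were lower, where 12.4% of all genes at that level were lower and 14.3% higher. None of the 12 members under 64 CPM passed, where 3.99% of all genes under that level were lower and 3.81% higher. The median transcript GC content was 51.8% in the called genes and 46.9% in the members that did not pass, against 49.1% over all tested genes. All 3 MSA-DA libraries lay below all 3 MSA-ZW libraries in 19 of the 37 genes and above them in 2, against 13.7% and 14.7% of all tested genes. The 37 genes summed to 5139, 5154 and 5113 CPM in the MSA-DA libraries, against 5343, 5408 and 5451 CPM in the MSA-ZW libraries, 4.91% lower in the mean on MSA-DA. Without the 10 called genes the other 27 summed to 2988 ± 17.1 CPM in MSA-DA cells, against 3034 ± 38.0 CPM in MSA-ZW cells (SD, n = 3), so most of the difference in the sum lay in the called genes, as their choice by the test implies.

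**Figure D1:**
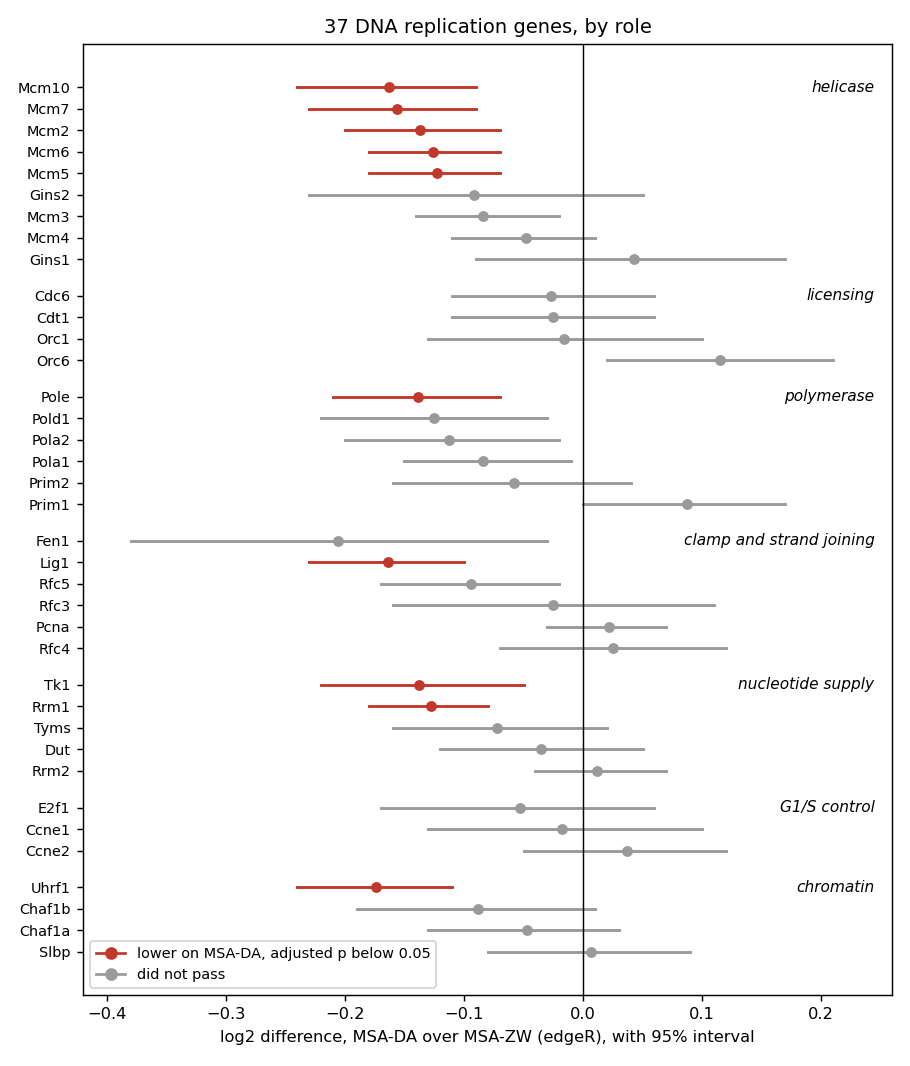
Log2 difference of each of the 37 genes, MSA-DA over MSA-ZW, from the edgeR fit with its 95% interval, grouped by role. Red genes are the 10 that were lower on MSA-DA, 5 of them in the helicase group, and grey genes did not pass.

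The helicase genes held 5 of the 10 falls: 5 of 9 were lower, 0 higher and 4 did not pass, with a median log2 difference of -0.12. Over all tested genes 6.5% were lower, and 12.4% of those with a mean of at least 64 CPM. The Mcm genes here all lay above that level and Gins1 and Gins2 below it, so role and depth were not separated. In the further helicase and firing list, given below, 1 was lower and 4 higher of 14. Mcm6, a subunit of the Mcm2 to Mcm7 ring (ENSMUSG00000026355, chromosome 1, 128259327 to 128287401, GRCm39), had 360.2, 352 and 352 CPM in the MSA-DA libraries, against 391, 387 and 383 CPM in the MSA-ZW libraries. The groups did not overlap, and the level was 8.35% lower on MSA-DA, with a log2 difference of -0.13 and a standard error of 0.03 (edgeR adjusted p = 0.00131). Mcm5, another ring subunit (ENSMUSG00000005410, chromosome 8, 75836197 to 75855067, GRCm39), had 292, 289 and 293 CPM in the MSA-DA libraries, against 314, 314 and 323 CPM in the MSA-ZW libraries, and was 8.15% lower (edgeR adjusted p = 0.00254). Its MSA-DA libraries lay within a few CPM of each other, all under the MSA-ZW libraries. Mcm7 (ENSMUSG00000029730, chromosome 5, 138162845 to 138170684, GRCm39) had 178, 174 and 182 CPM in the MSA-DA libraries, against 193, 193 and 209 CPM in the MSA-ZW libraries. It was 10.3% lower (edgeR adjusted p = 0.0014), with MSA-ZW replicate 3 above the other libraries of its gel, and the locus overlaps Cops6 by 64 bases on the other strand. Mcm2, whose product also binds histones (ENSMUSG00000002870, chromosome 6, 88860456 to 88875762, GRCm39), had 173, 169.8 and 163 CPM in the MSA-DA libraries, against 184, 189.6 and 184 CPM in the MSA-ZW libraries, again with no overlap, and was 9.08% lower (edgeR adjusted p = 0.00298).

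The remaining ring subunits had smaller differences. Mcm3 had 262, 272 and 263 CPM in the MSA-DA libraries, against 277, 285 and 283 CPM in the MSA-ZW libraries, with no overlap between the gels, and just missed the threshold (edgeR adjusted p = 0.0506, log2 difference -0.08). It passed in 4 of 16 alternative fits, among them when MSA-ZW replicate 1 or MSA-ZW replicate 3 was left out (edgeR adjusted p = 0.0417 and 0.0472). Over the 16 its log2 difference ran from -0.11 to -0.06. Mcm4 had 242, 235 and 241 CPM in the MSA-DA libraries, against 245, 249 and 248 CPM in the MSA-ZW libraries and did not pass (edgeR adjusted p = 0.321). The 6 ring subunits thus all had MSA-DA libraries below the MSA-ZW libraries, 4 of them past the test. Their sum was 1508, 1492 and 1494 CPM in the MSA-DA libraries, against 1604, 1617 and 1630 CPM in the MSA-ZW libraries, which is 7.36% lower in the mean.

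Mcm10, which binds the assembled helicase and is needed to start unwinding (ENSMUSG00000026669, chromosome 2, 4994525 to 5017602, GRCm39), was not a ring subunit but fell too. It had 115, 113 and 114 CPM in the MSA-DA libraries, against 123, 129 and 131 CPM in the MSA-ZW libraries, and was 10.7% lower (edgeR adjusted p = 0.00156). Gins1 and Gins2 encode parts of the GINS complex, which joins the ring to the leading-strand polymerase. Gins1 had 36.6, 35.3 and 35.6 CPM in the MSA-DA libraries, against 31.9, 34.6 and 37.6 CPM in the MSA-ZW libraries (edgeR adjusted p = 0.739), and Gins2 had 32.6, 32.8 and 30.4 CPM in the MSA-DA libraries, against 32.9, 31.6 and 37.5 CPM in the MSA-ZW libraries (edgeR adjusted p = 0.432). The gels overlapped in both, and the Gins2 locus overlaps Gse1, so its counts are uncertain.

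Per length, the ring subunits were not equal on either gel. The authors' FPKM values, which are per kilobase of exonic length, averaged 24.2 for Mcm2, 70.6 for Mcm3, 66.4 for Mcm4, 72.7 for Mcm5, 75.7 for Mcm6 and 40.1 for Mcm7 on MSA-DA. On MSA-ZW they averaged 26.7, 75.2, 69.0, 79.5, 83.1 and 44.9 for the same genes in that order. Mcm6 was highest and Mcm2 lowest on both gels. The exonic length covers every annotated exon, which lowers the FPKM of a gene with exons that these cells may not use, and it is 6956 bases for Mcm2 against 3589 to 4666 bases for the other 5. On MSA-DA the FPKM values of Mcm3 and Mcm5 overlapped between libraries (69.7 to 72.2 and 72.1 to 73.2), and on MSA-ZW they did not.

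**Figure D2:**
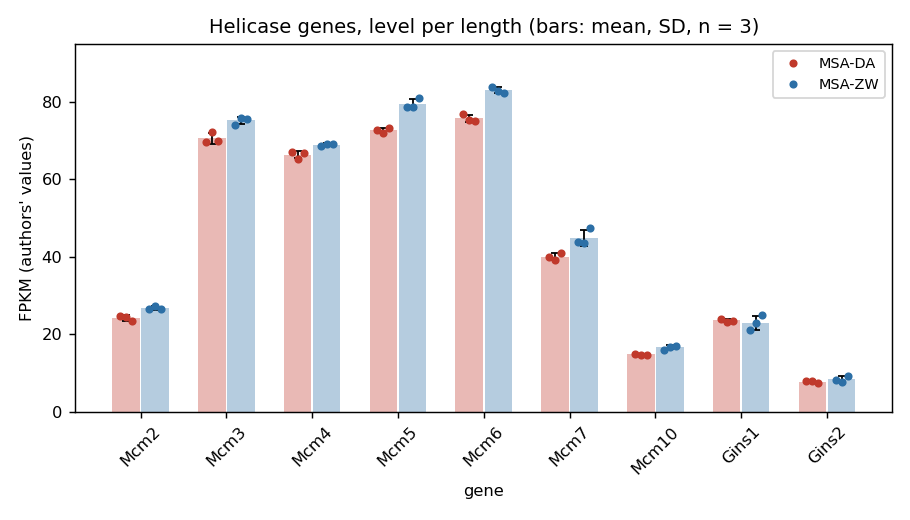
FPKM of the 9 helicase genes on each gel; bars are means, error bars SD over 3 libraries and dots single libraries. Mcm6 was highest at 75.7 ± 0.966 FPKM in MSA-DA cells, against 83.1 ± 0.855 FPKM in MSA-ZW cells, and Gins2 lowest.

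None of the 4 licensing genes passed. Orc6, a subunit of the origin recognition complex, had 66.6, 62.5 and 64.3 CPM in the MSA-DA libraries, against 59, 58.8 and 60.5 CPM in the MSA-ZW libraries. Its MSA-DA libraries all lay above its MSA-ZW libraries, but the difference did not pass (edgeR adjusted p = 0.0982), and the locus overlaps Vps35 on the other strand. Cdc6 and Cdt1 load the helicase at origins. Cdc6 had 70.9, 74.3 and 75.4 CPM in the MSA-DA libraries, against 74.1, 74.4 and 76.5 CPM in the MSA-ZW libraries (edgeR adjusted p = 0.754), and Cdt1 had 78.9, 81.9 and 77.8 CPM in the MSA-DA libraries, against 79.5, 77.2 and 86 CPM in the MSA-ZW libraries (edgeR adjusted p = 0.788). The large origin recognition subunit Orc1 had 42.5, 43.4 and 43.1 CPM in the MSA-DA libraries, against 41, 43.7 and 45.8 CPM in the MSA-ZW libraries (edgeR adjusted p = 0.897). The gels overlapped in these 3 genes. The 95% intervals of their differences were -7.6% to 4.21% for Cdc6, -7.63% to 4.59% for Cdt1 and -8.59% to 6.94% for Orc1. A fall of 8.35%, the Mcm6 estimate, lay outside the intervals of Cdc6 and Cdt1 and inside that of Orc1. The Mcm6 interval itself, -11.8% to -4.79%, overlapped all 3, and whether these genes differed from Mcm6 was not tested.

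Of 6 polymerase and primase genes, Pole was lower and 5 did not pass, with a median log2 difference of -0.10. Pole, the catalytic subunit of the leading-strand polymerase epsilon (ENSMUSG00000007080, chromosome 5, 110434172 to 110485340, GRCm39), had 134, 129 and 130.4 CPM in the MSA-DA libraries, against 146, 145 and 142 CPM in the MSA-ZW libraries. All MSA-DA libraries were below the MSA-ZW libraries, and the level was 9.16% lower (edgeR adjusted p = 0.00416). Pold1, the catalytic subunit of polymerase delta, had 61.8, 59.6 and 59.6 CPM in the MSA-DA libraries, against 61.9, 65.8 and 69.2 CPM in the MSA-ZW libraries, with gels separated by a narrow margin (edgeR adjusted p = 0.0825). It passed when MSA-ZW replicate 1 was left out (edgeR adjusted p = 0.026), but in no other of 16 alternative fits. Over these its log2 difference ran from -0.17 to -0.04. Pola1 and Pola2, of the polymerase that lays down primers with primase, had log2 differences of -0.08 and -0.11 (edgeR adjusted p = 0.103 and 0.0883), and neither overlapped between gels. The primase genes went apart in value. Prim1, the catalytic primase subunit, had 82, 80.5 and 84.2 CPM in the MSA-DA libraries, against 75.2, 77.9 and 78.9 CPM in the MSA-ZW libraries, all higher on MSA-DA, without passing (edgeR adjusted p = 0.179). Prim2, the large primase subunit, had 54.3, 55.5 and 58.2 CPM in the MSA-DA libraries, against 56.5, 59.7 and 58.8 CPM in the MSA-ZW libraries with overlap (edgeR adjusted p = 0.497).

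Among 6 clamp and strand-joining genes, Lig1 was lower and 5 did not pass. Lig1 seals the nicks between Okazaki fragments (ENSMUSG00000056394, chromosome 7, 13011239 to 13045350, GRCm39) and had 196, 191 and 182 CPM in the MSA-DA libraries, against 209, 217 and 211 CPM in the MSA-ZW libraries. The gels did not overlap, and the level was 10.8% lower, with a log2 difference of -0.16 and a standard error of 0.03 (edgeR adjusted p = 0.000438). Pcna, the sliding clamp and at 258 FPKM on MSA-DA and 255 FPKM on MSA-ZW the most abundant member per length, had 608, 628 and 625 CPM in the MSA-DA libraries, against 602, 614 and 619 CPM in the MSA-ZW libraries. Its libraries overlapped (edgeR adjusted p = 0.649), and the 95% interval of the difference ran from -1.98% to 5.12%, which leaves out a fall of the size seen in Lig1. The pseudogene Pcna-ps2 held 332 counts over all libraries. Fen1, the nuclease that trims Okazaki flaps, had the lowest depth of all members, with 212, 287 and 253 counts on MSA-DA and 315, 285 and 316 counts on MSA-ZW. The counts of the gels overlapped, but CPM did not. Its CPM was 13.3% lower, the lowest of the 37 log2 values, but it did not pass (edgeR adjusted p = 0.113), and the locus overlaps Tmem258. The clamp loader genes Rfc3, Rfc4 and Rfc5 had log2 differences of -0.03, 0.02 and -0.09 (edgeR adjusted p of 0.86, 0.797 and 0.104). Of these, Rfc5 did not overlap between gels. The Rfc4 locus overlaps Eif4a2 and the Rfc5 locus Wsb2 on the other strand, so the counts of both are uncertain.

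Nucleotide supply genes were lower in 2 of 5 members. Rrm1, the large subunit of ribonucleotide reductase, which makes deoxynucleotides from ribonucleotides (ENSMUSG00000030978, chromosome 7, 102090902 to 102118978, GRCm39), had 449.7, 455 and 449 CPM in the MSA-DA libraries, against 485, 504 and 491 CPM in the MSA-ZW libraries. The gels were well apart, and the level was 8.52% lower (edgeR adjusted p = 0.000641). Rrm2, the small subunit of the same enzyme, had 371, 378 and 369 CPM in the MSA-DA libraries, against 366, 373 and 369 CPM in the MSA-ZW libraries. Its libraries overlapped between the gels (edgeR adjusted p = 0.834, 95% interval -2.91% to 4.76%). Tk1, the thymidine salvage kinase of S phase (ENSMUSG00000025574, chromosome 11, 117706352 to 117716918, GRCm39), had 86.1, 83 and 82.8 CPM in the MSA-DA libraries, against 90.8, 88.2 and 97.8 CPM in the MSA-ZW libraries and was 9.15% lower (edgeR adjusted p = 0.0245). Its call was the least stable of the 10: without MSA-DA replicate 2, MSA-DA replicate 3 or MSA-ZW replicate 3 the edgeR adjusted p was 0.0972, 0.0868 and 0.168. Tyms, which makes thymidylate, had 60.2, 62.3 and 59.7 CPM in the MSA-DA libraries, against 64.2, 64.5 and 63 CPM in the MSA-ZW libraries, without overlap and without passing (edgeR adjusted p = 0.339). Dut, which removes dUTP, had 82.5, 84 and 80.4 CPM in the MSA-DA libraries, against 82.8, 84.7 and 85.6 CPM in the MSA-ZW libraries (edgeR adjusted p = 0.645).

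The 3 regulators of the G1 to S transition did not pass, and the gels overlapped in each. E2f1, an activating E2F factor, had 44, 46.3 and 44.1 CPM in the MSA-DA libraries, against 47.2, 43.4 and 48.9 CPM in the MSA-ZW libraries (edgeR adjusted p = 0.606). Cyclin E genes had 42.1, 41.4 and 46.3 CPM in the MSA-DA libraries, against 42.9, 44.3 and 44 CPM in the MSA-ZW libraries for Ccne1 (edgeR adjusted p = 0.892), and 93.6, 93.2 and 85.7 CPM in the MSA-DA libraries, against 92.4, 87.5 and 85.8 CPM in the MSA-ZW libraries for Ccne2 (edgeR adjusted p = 0.645), whose locus overlaps Ints8. The 95% interval of the difference was -10.8% to 4.19% for E2f1, -8.72% to 6.92% for Ccne1 and -3.33% to 8.93% for Ccne2.

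Of the 4 chromatin genes, Uhrf1 was lower and 3 did not pass. Uhrf1, which reads hemimethylated DNA behind the fork and recruits the maintenance methyltransferase (ENSMUSG00000001228, chromosome 17, 56610321 to 56630486, GRCm39), had 181, 191 and 184 CPM in the MSA-DA libraries, against 214, 204 and 209 CPM in the MSA-ZW libraries. It had the smallest p of the 37, at 11.4% lower with a log2 difference of -0.17 and a standard error of 0.03 (edgeR adjusted p = 0.000165). The chromatin assembly factor genes Chaf1a and Chaf1b, which place histones on new DNA, had log2 differences of -0.05 and -0.09 (edgeR adjusted p of 0.503 and 0.257). Slbp, which binds the stem-loop of replication-dependent histone mRNAs, had 79.4, 84.4 and 83 CPM in the MSA-DA libraries, against 78.5, 84.3 and 83.1 CPM in the MSA-ZW libraries (edgeR adjusted p = 0.944).

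**Figure D3:**
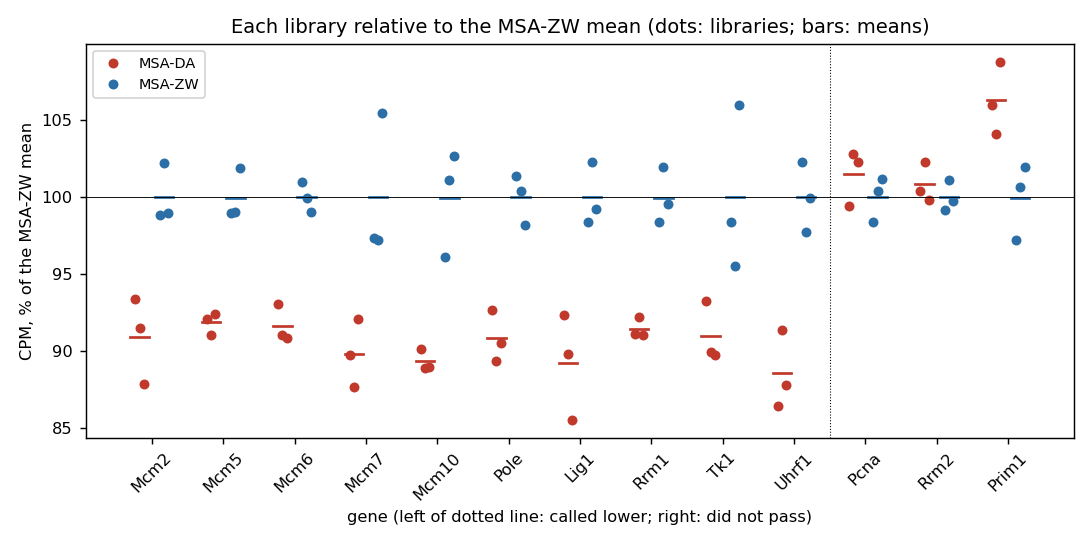
CPM of each library as a percentage of the MSA-ZW mean of that gene, for the 10 called genes and for Pcna, Rrm2 and Prim1, which did not pass; dots are libraries and bars means. In the called genes the MSA-DA libraries lay between 85.6% and 93.4% and the MSA-ZW libraries between 95.6% and 106.0%.

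Ratios of counts within a library do not depend on how libraries are scaled, and 4 were computed for pairs chosen after their values were seen. Mcm6 over Pcna was 0.592, 0.561 and 0.562 on MSA-DA and 0.65, 0.63 and 0.62 on MSA-ZW. Rrm1 over Rrm2, the subunits of a single enzyme, was 1.21 ± 0.00646 in MSA-DA cells, against 1.34 ± 0.012 in MSA-ZW cells (SD, n = 3). Pole over Prim1 was 1.59 ± 0.0396 in MSA-DA cells, against 1.86 ± 0.0749 in MSA-ZW cells (SD, n = 3). In all 4 ratios, with Mcm6 over Cdc7 as the fourth, the gels did not overlap (two-sided exact permutation test over libraries, p = 0.1 for each and 0.1 after Benjamini-Hochberg adjustment). That is the smallest p that 3 libraries against 3 allow, so this test cannot reach 0.05. Each pair also set a gene called lower over one that was not lower, so the separation follows from the choice of pairs and supports no further result.

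Further replication genes included calls in both directions. In lists of 100 further genes of the same roles, 96 could be tested, of which 16 were lower (16.7%), 5 higher (5.21%) and 75 did not pass, with a median log2 difference of -0.02. Over all tested genes 6.5% were lower and 6.92% higher, so the share that was higher in these lists was near that of all genes. The 5 that were higher came from the helicase and firing list and the licensing list. The first had 4 higher, 1 lower and 9 not passing of 14, and the second 1 higher, 0 lower and 4 not passing of 5. Of the 5, only Cdc7 kept its call in all 16 alternative fits. Dbf4, Topbp1, Orc2 and Gins3 lost it in 6, 7, 9 and 11 of them. Cdc7, the kinase that phosphorylates the loaded Mcm ring, was 24.6% higher, at 40.5, 40.9 and 40 CPM in the MSA-DA libraries, against 32, 32.4 and 33 CPM in the MSA-ZW libraries (edgeR adjusted p = 0.000199). Its gels were far apart, and its regulatory subunit Dbf4 was 10.4% higher, at 134 ± 3.3 CPM in MSA-DA cells, against 122 ± 1.63 CPM in MSA-ZW cells (SD, n = 3, edgeR adjusted p = 0.00413). The Dbf4 call was lost when MSA-DA replicate 3 was left out (edgeR adjusted p = 0.0505) and with an offset for GC content and length (0.17). The ratio of Mcm6 to Cdc7 counts, a pair chosen after its values were seen, was 8.9, 8.61 and 8.8 on MSA-DA. On MSA-ZW it was 12.2, 12.0 and 11.6. Topbp1, a scaffold of helicase activation, was 7.52% higher (edgeR adjusted p = 0.0215), but not when MSA-DA replicate 1, MSA-DA replicate 2, MSA-ZW replicate 2 or MSA-ZW replicate 3 was left out (edgeR adjusted p of 0.134, 0.16, 0.0572 and 0.0624). Orc2, of the origin recognition complex, was 8.8% higher (edgeR adjusted p = 0.0174), but not when MSA-DA replicate 2, MSA-DA replicate 3 or MSA-ZW replicate 2 was left out (edgeR adjusted p of 0.156, 0.0617 and 0.166), nor with the offset (0.168).

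The GINS subunits outside the 37 went opposite ways. Gins4 had 42.6, 40.3 and 41.4 CPM in the MSA-DA libraries, against 44.8, 46.3 and 51.3 CPM in the MSA-ZW libraries and was 13% lower (edgeR adjusted p = 0.0157). The Gins4 call was lost in 6 of 16 alternative fits, including DESeq2 and the limma fits. It was also lost when MSA-DA replicate 2 or MSA-ZW replicate 3 was left out (edgeR adjusted p = 0.0876 and 0.132). Gins3, named after its values were seen, had 73.2, 73.6 and 74.6 CPM in the MSA-DA libraries, against 63.3, 67.8 and 69.8 CPM in the MSA-ZW libraries and was 10.2% higher (edgeR adjusted p = 0.032). Its call was lost without MSA-DA replicate 1, 2 or 3 and without MSA-ZW replicate 1 or 2, with edgeR adjusted p of 0.067 to 0.197.

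Fork and strand-joining genes were lower in 4 of 19 tested genes and higher in 0. Chtf18, of an alternative clamp loader, was 20.1% lower, at 24.9, 27.3 and 30.9 CPM in the MSA-DA libraries, against 35.3, 33.8 and 35 CPM in the MSA-ZW libraries (edgeR adjusted p = 0.00132). Timeless, which steadies the moving fork, was 13% lower, at 80.6 ± 3.12 CPM in MSA-DA cells, against 92.5 ± 3.35 CPM in MSA-ZW cells (SD, n = 3, edgeR adjusted p = 0.000931). None of the 6 further polymerase subunits passed. Nucleotide genes were lower in 4 of 16 and higher in 0. Dck, a deoxycytidine salvage kinase, was 8.89% lower (edgeR adjusted p = 0.00166), and Cad, which starts pyrimidine synthesis, 9.06% lower (edgeR adjusted p = 0.00253), although Cad did not pass with the offset for GC content and length (0.227).

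All D-type cyclin genes, which drive cells through G1, were lower. Ccnd1 had 717, 741 and 722 CPM in the MSA-DA libraries, against 808, 797 and 799 CPM in the MSA-ZW libraries, a fall of 9.28% with no overlap (edgeR adjusted p = 5.19e-05). Ccnd2 was 11.1% lower (edgeR adjusted p = 0.000754) and Ccnd3 12.7% lower (edgeR adjusted p = 0.00595). Ccnd3 did not pass with the offset for GC content and length (edgeR adjusted p = 0.111). Together the G1 to S list had 5 lower, 0 higher and 21 not passing of 26 tested. Among 10 further chromatin genes 2 were lower, including Dnmt1, the maintenance methyltransferase that Uhrf1 recruits, at 7.69% lower (edgeR adjusted p = 0.00309, and 0.101 with the offset). Among 21 mitosis genes 5 were lower (23.8%) and 0 higher, with a median log2 difference of -0.06. Of the 21, 16 had a value below 0. These values were close to those of the 37 replication genes (27.0% lower, median -0.07, 29 below 0), so the shift was not particular to replication genes.

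**Figure D4:**
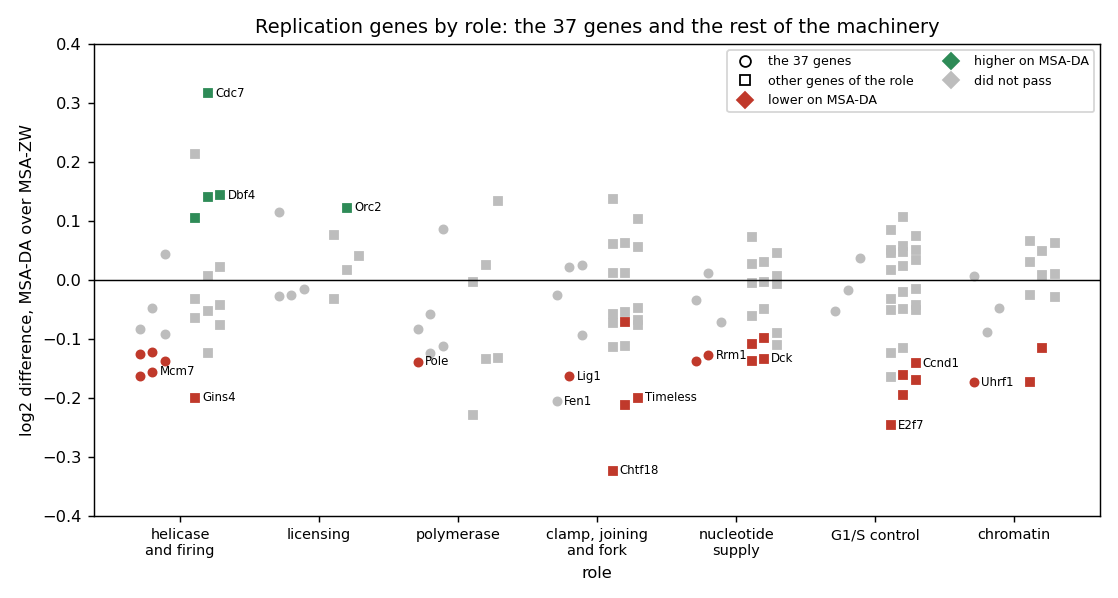
Log2 difference, MSA-DA over MSA-ZW, of the 37 genes (circles, left in each role) and of the other tested genes of that role (squares, right). Green squares are the 5 genes that were higher, Cdc7 the farthest at 0.32, and red marks genes that were lower, Chtf18 the farthest at -0.32.

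The DNA replication pathway in the annotation column of the deposited table held 57 genes, of which 37 were tested and 18 are among the members here. Of these 37 tested genes, 7 were lower and 0 higher, with a median log2 difference of -0.07. Only 1 of the 7 was not a member, out of 19 tested pathway genes outside the members. Over all tested genes 6.5% were lower, so the pathway list adds little to the calls already counted among the members.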

How the data were processed

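RNA from 6 libraries, 3 per gel, was grouped by the titles in the labels. Reads were handled with HISAT2 2.2.1, cutadapt 1.9.1 and bcl2fastq 2.20.0.422 on GRCm39, per the submitters' processing notes; which program counted reads, whether strand was used, and from which gene models, was not given in the sources used here. A single table from the authors holds whole-number counts per gene, not normalized. It also holds FPKM as deposited, which the counts, exonic lengths and count totals give back to within 0.005.

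Counts were tested with edgeR 4.0.16 in R 4.3.3 (quasi-likelihood, TMM, filterByExpr, no covariate), with Benjamini-Hochberg adjustment over 12467 genes at 0.05. The standard error is the log2 difference over the root of F. Alternatives were DESeq2 1.42.0, limma 3.58.1 on log2(FPKM + 1) and with 0.1 added (keeping genes that reached an FPKM of 1 in 3 libraries, or all genes), RLE factors, no count filter, no ribosomal-RNA-like or mitochondrial genes, a replicate block, an mgcv 1.9.3 offset for transcript GC content and length (GENCODE vM21; all 37 members had a GC value), and each library left out. The edgeR, DESeq2 and limma fits were run on simulated counts with their default settings only, and the other alternatives were not. Members and lists were chosen with earlier results of these data known. Genes named outside the members are at most 4 called genes per list, by smallest p, except Gins3, which was named after its values were seen. Overlapping genes cannot be separated without the strand setting: 7 members overlap a gene with at least 10% of their counts. Intervals and p-values reflect these libraries only. Figures and ratios use the deposited counts and FPKM. Counting precision is limited for Fen1, with 212 to 316 counts per library.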

Additional observations from a re-analysis of the deposited data

How the results depend on the processing

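Over 16 alternatives, the count of members called lower was 9 to 12 in 15 of them, and 0 members were called higher in all 16. The exception was limma on log2(FPKM + 1) without a filter on low values, where 4 remained: Mcm5, Mcm6, Rrm1 and Uhrf1, which kept their call in all 16. The other called members except Tk1 lost it there alone; Tk1 lost it in 9. Leaving out each library gave 9 to 12. With the replicate block 10 were lower, the same 10 genes, and the block changed no member's call. Same-numbered libraries did not deviate together (correlations of 0.0109, 0.0167 and -0.0025). The labels give them only the same number, and whether they shared a culture or preparation cannot be told from these values. With the offset for GC content and length 10 were lower, Pola1 in place of Tk1. The median log2 difference ran from -0.08 to -0.05. Of the other listed genes, 26 were called, against 16 with DESeq2, 13 with limma on log2(FPKM + 1), 13 with 0.1 added, 3 with limma without a filter, 26 with the replicate block and 14 to 24 with a library left out. Overall 1673 genes were called, against 949 with DESeq2, 906, 895 and 412 with the limma fits, and 1001 and 1065 without MSA-DA replicate 2 or 3. None of the 12 members under 64 CPM passed, and the part of depth in this was not tested.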
